A study of Drosophila melanogaster with 3 samples.

Results

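Dosage compensation and sex determination were followed through 10 genes of the Drosophila melanogaster count tables, which hold 17824 genes. These were the non-coding RNAs roX1 and roX2, the male-specific lethal (MSL) genes msl-1, msl-2, msl-3, mle and mof, the sex determination switch Sxl, and the terminal transcription factor genes dsx and fru. They were chosen by name. In each cell, male meant 5 or more UMIs (unique molecular identifiers, 1 per captured transcript molecule) of roX1 plus roX2, and female meant 1 or fewer, so the roX difference between these classes is fixed by the rule and is given below as a description. The other 8 genes took no part in the classes.

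The cells were LPLC2, LPLC1 and LC4 visual projection neurons, which carry looming signals from the optic lobe to the central brain, sorted by nuclear GFP from pupae at 48, 72 and 96 h after puparium formation (APF). Every pupa was the offspring of a virgin female with a split-GAL4 driver (OL0048b for LPLC2, OL0029b for LPLC1, SS00315 for LC4) and a male with UAS-His2A-GFP and the third chromosome of a DGRP wild-type strain. All groups therefore carried both driver components, the reporter and a copy of the third chromosome from DGRP, pupae were pooled within a cross, and each cross of a driver to a strain was a replicate. Each type had 6 crosses at each stage, but LC4 had 4 at 72 and 4 at 96 h. Strains 399, 535, 730, 799 and 805 were used at all stages where a cross was made, strain 555 at 48 h and strain 320 at 72 and 96 h. Strain and the age subgroup (early or late) went together. Sons received their X chromosome from the driver mother alone, whereas daughters also carried an X of the father, so allelic differences between these X chromosomes and sex cannot be told apart for X-linked genes. Each stage was 1 library in 1 lane, and the 48 h library was read at other read lengths, so stage and library cannot be told apart.

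In total 5674 annotated cells in 50 crosses were used. Summed depth per cross ran from 253805 to 7041162 UMIs, and 2, 1 and 4 barcodes were shared between pairs of libraries. The labelled types carried their markers: Lim1 and Sox102F in LPLC2, br and tup in LPLC1, and kn, lov and Lim3 in LC4, with br and, at a lower level, tup also present in LC4 and Lim1 and Sox102F also in LPLC1. Markers of glia, photoreceptors, haemocytes, fat body and muscle were near 0. The median male-to-female ratio of UMIs per cell within a cross was 0.962 (range 0.772 to 1.68).

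In Drosophila the single X of males is transcribed at a raised rate by the MSL complex. MSL-2 and MSL-1 form its core, MSL-3 binds a methyl mark on active genes, MOF acetylates histone H4, and the RNA helicase MLE remodels the roX RNAs so that they can join. In females the RNA-binding protein SXL blocks msl-2 translation, so that the complex does not assemble and roX RNA is unstable. SXL also directs splicing of tra, and TRA with TRA2 sets the sex-specific splicing of dsx and of transcripts from the distal fru promoter. The tables count genes, not isoforms, so sex-specific splice forms of Sxl, msl-2, tra, dsx and fru could not be separated. For orientation on Release 6 (dm6), roX1 lies on X at 3857230 to 3862697 on the minus strand, overlapping ec on the other strand, and roX2 on X at 11579065 to 11580432. Sxl (X, 7074550 to 7098053) and mof (X, 5873840 to 5876853) are X-linked. The others are autosomal: msl-1 and msl-2 on 2L, mle on 2R, msl-3 on 3L, dsx (7924323 to 7967408) and fru (18414273 to 18545586) on 3R. msl-3 overlaps form3, dsx overlaps lds and Sxl overlaps lncRNA:CR46494, each on the other strand.

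The roX RNAs fell into 2 separate peaks over cells. Of the 5674 cells, 2178 had no roX UMI and 704 had 1, whereas 2545 had 20 or more, with a maximum of 177 UMIs. Counts fell away from the low peak, with 158 cells at 2 UMIs, 33 at 3 and 6 at 4. A further 12 cells had 5 to 9 and 38 had 10 to 19. The range of 2 to 4 UMIs held 197 cells (3.47%), which were left out of both classes. Most of these had 2 UMIs, next to the low peak, so this range was not the emptiest part between the peaks. Cells just inside the male boundary, at 5 to 19 UMIs, made up 0.881%. This gave 2595 male and 2882 female cells, and the male median was 80 roX UMIs per cell.

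**Figure D1:**
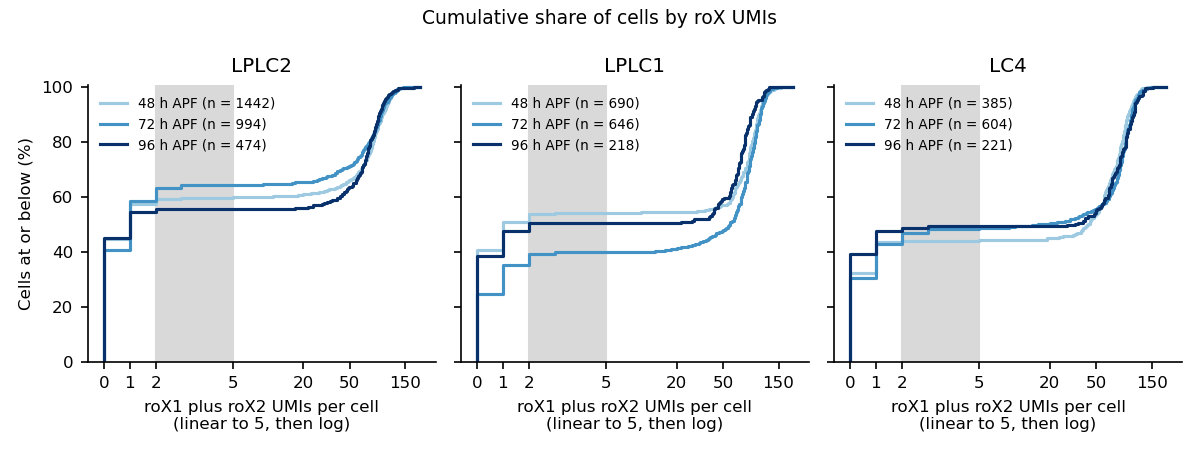
Cumulative share of cells (y axis, %) with at most the number of roX1 plus roX2 UMIs on the x axis (linear to 5, then logarithmic), 1 line per stage and 1 panel per cell type. Each line rises at 0 and 1 UMI, is nearly flat over the grey band of 2 to 5 UMIs, where 197 of 5674 cells had 2 to 4 UMIs, and rises again around the male median of 80 UMIs.

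The range of 2 to 4 UMIs was not equally filled in all groups. It held 2.43% of LPLC2 cells at 48 h, 5.84% (exact 95% interval 4.46 to 7.48) at 72 h and 0.844% at 96 h. In LPLC1 it held 3.48%, 4.80% and 2.75% at the same stages. In LC4 it held 0.519%, 5.46% and 1.81%. The 72 h library had the highest share in each cell type. Between-class cells were also deeply sequenced: in LPLC2 at 72 h their median was 23051 UMIs per cell against 20249 in male and 20253 in female cells, and they were deeper than both classes in every group but LC4 at 48 h, which had 2 such cells. After each cell was thinned to 10000 UMIs, the share over all cells was 0.951%, and it was 1.53%, 1.07% and 1.11% at 72 h in LPLC2, LPLC1 and LC4. The part of depth, free RNA and pairs of cells from 1 cross in these cells was not tested, since doublets within a cross carry 1 genotype and were not identifiable from genotype.

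Both roX RNAs were on in nearly every male cell. All 2595 male cells had a roX1 UMI and all but 5 had a roX2 UMI. In LPLC2, roX1 in male cells averaged 32.6 ± 0.81 UMIs per 10000 at 48 h, 28.9 ± 0.90 at 72 h and 32.8 ± 1.36 at 96 h (mean ± SD, n = 6 crosses each). In LPLC1 it averaged 29.7 ± 1.31 and 26.5 ± 0.99 (n = 6) and 28.9 ± 1.92 (n = 5). In LC4 it averaged 24.9 ± 1.40, 19.5 ± 1.16 and 29.8 ± 2.54 (n = 4 each), the lowest of the 3 types at 48 and 72 h but not at 96 h. In each cell type the mean was lowest at 72 h. The male level of roX2 was 13.03 ± 0.73, 10.1 ± 0.46 and 10.9 ± 1.001 in LPLC2, 12.5 ± 0.65, 11.4 ± 0.53 and 11.5 ± 0.73 in LPLC1, and 9.27 ± 1.08, 8.61 ± 0.63 and 7.93 ± 0.56 in LC4, in the same units and order. No LC4 mean of roX2 reached the lowest LPLC2 or LPLC1 mean.

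Female cells held 0.038 to 0.082 roX1 UMIs per 10000 as means per group. The female roX2 means ran from 0.021 to 0.079. These low values are partly set by the class rule, which admits at most 1 roX UMI per cell.

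The balance of the 2 RNAs differed between groups. The ratio of roX1 to roX2 UMIs in male cells of a cross was 2.51 ± 0.16, 2.87 ± 0.19 and 3.02 ± 0.34 in LPLC2 at 48, 72 and 96 h. In LPLC1 it was 2.38 ± 0.15, 2.33 ± 0.15 and 2.52 ± 0.18. In LC4 it was 2.70 ± 0.27, 2.27 ± 0.18 and 3.77 ± 0.43, so the 4 LC4 crosses at 96 h (3.28 to 4.29) lay above all 4 at 72 h (2.17 to 2.54). Capture at the 3′ end differs between transcripts, so the ratio is read between groups only. Among male cells of a group, roX1 and roX2 per UMI were weakly related, with Spearman correlations between -0.034 (LPLC2, 72 h, 353 cells) and 0.373 (LC4, 48 h, 215 cells), given as descriptions because the cells share a library and both measures share the cell's depth.

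The second roX RNA separated the classes when the first alone set them, which is a measure the class did not use. With high cells holding 3 or more roX1 UMIs and low cells none, roX2 was 10.8 ± 1.73 UMIs per 10000 in high and 0.084 ± 0.043 in low cells (n = 44 crosses). The lowest high value was 7.34 and the highest low value 0.179, so the groups did not overlap. The log2 fold change was 6.99 (SE 0.08, edgeR), higher in 44 of 44 crosses. With the classes set by roX2, roX1 was 28.6 ± 3.92 against 0.103 ± 0.064, a log2 fold change of 8.04 (SE 0.08), again in 44 of 44 crosses.

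The crosses were not evenly split by sex. Male cells made up 41.3%, 37.7% and 44.9% of classed LPLC2 cells at 48, 72 and 96 h, 47.4%, 62.9% and 50.9% of LPLC1, and 56.1%, 54.6% and 51.6% of LC4. Single crosses stood far apart: LPLC2 with strain 320 at 72 h had 10 male and 214 female cells, LPLC1 with strain 805 at 72 h had 97 male and 1 female, and LC4 at 48 h had no male cell with strain 399 (14 cells) or 555 (12 cells). As a result, the whole-cross level of roX1 in LPLC2 at 72 h ran from 1.78 to 22.7 UMIs per 10000. In sums over all cells, fewer male cells and less roX RNA per male cell cannot be told apart. The male and female comparison below was therefore made within crosses, in the 44 crosses with at least 10 cells of each class.

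Of the 7 members tested besides the roX RNAs, 3 differed between male and female cells: Sxl and fru were lower and msl-2 slightly higher in males. Over the 44 crosses, 6807 genes were tested without the roX RNAs and 781 (11.5%) passed an adjusted p of 0.05, 382 higher in male (5.61%) and 399 higher in female cells (5.86%). With cells thinned to 10000 UMIs, 471 genes passed. msl-1, msl-3, mle and mof did not pass, and dsx was too low to be tested.

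Sxl, the X-linked switch whose active product is made in females, was higher in the female cells of every cross. In LPLC2 female cells its level had a lowest, median and highest value of 7.16, 7.48 and 8.11 UMIs per 10000 at 48 h, against male values of 3.16, 3.29 and 4.002. The 6 female values lay above the 6 male values with a wide gap. At 72 h the female values ran from 6.01 to 7.88 and the male values from 4.01 to 6.37, and at 96 h from 7.06 to 8.76 and from 3.87 to 5.51. The 72 h overlap came from strain 320, whose 10 male cells gave 6.37, while its 214 female cells gave 7.63. The next highest male value at 72 h was 4.81.

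In LPLC1 the female and male ranges were 7.27 to 8.24 and 2.93 to 3.88 at 48 h (n = 6). At 72 h the 5 female values were 8.45, 6.94, 7.83, 8.67 and 8.04, and the male values of the same crosses were 5.26, 5.19, 5.65, 5.47 and 5.02. At 96 h the 4 female values were 7.01, 8.28, 6.86 and 9.51, and the male values 4.57, 4.63, 4.07 and 3.95. No male value reached a female value in any of the 3 groups.

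LC4 at 48 h had the lowest Sxl of any group in both sexes. The 4 female values there were 5.56, 5.68, 5.08 and 5.69, and the male values 1.85, 2.10, 1.93 and 1.89. At 72 h they were 8.31, 8.01, 8.61 and 7.79 in female and 4.77, 4.36, 4.72 and 4.37 in male cells. At 96 h the 3 pairs were 8.67 and 4.27, 9.28 and 4.42, and 7.64 and 5.09.

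Over all crosses Sxl was 4.11 ± 1.02 in male and 7.57 ± 0.95 UMIs per 10000 in female cells, a log2 fold change of -0.90 (adjusted p = 3.59e-22, SE 0.05, edgeR), lower in 44 of 44 crosses. It passed in each of the 9 combinations of type and stage. The share of all genes that passed there was 3.79%, 4.47% and 16.4% in LPLC2, 2.88%, 1.56% and 5.48% in LPLC1, and 1.19%, 1.01% and 2.2% in LC4 at 48, 72 and 96 h. The difference varied with stage: the log2 fold change was -1.26 (SE 0.05) at 48 h, -0.65 (SE 0.05) at 72 h and -0.77 (SE 0.06) at 96 h. The stage interaction passed (adjusted p = 8.8e-09), as it did for 22.9% of genes, and the cell type interaction did not (adjusted p = 0.983). The female means changed little from 48 to 72 h in LPLC2 (7.56 ± 0.34 and 7.09 ± 0.67) and LPLC1 (7.87 ± 0.34 and 7.99 ± 0.67), while the male means were 3.42 ± 0.30 and 4.79 ± 0.82 in LPLC2 and 3.56 ± 0.35 and 5.27 ± 0.25 in LPLC1. In LC4 the means rose from 48 to 72 h in both sexes. In the crosses with both classes (n = 4 each) they were 5.50 ± 0.29 and 8.18 ± 0.36 in female cells. In male cells of these crosses they were 1.94 ± 0.11 and 4.55 ± 0.22. The 48 h library was also the one with other read lengths.

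The difference lay in the number of Sxl UMIs per cell rather than in their presence or absence. Splice forms were not separated, so these counts do not bear on the state of the switch. Sxl was detected in 5625 of 5674 cells. With cells thinned to 10000 UMIs, the median per cell was 3, 4 and 4 UMIs in male LPLC2 cells and 7, 7 and 8 in female LPLC2 cells at 48, 72 and 96 h. In LC4 the male medians were 2, 4 and 5 and the female medians 5, 8 and 9. The share of male cells that reached the female median of their group was between 5.24% (LC4, 48 h) and 20.3% (LPLC1, 72 h). Cells under 10000 UMIs were left out.

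**Figure D2:**
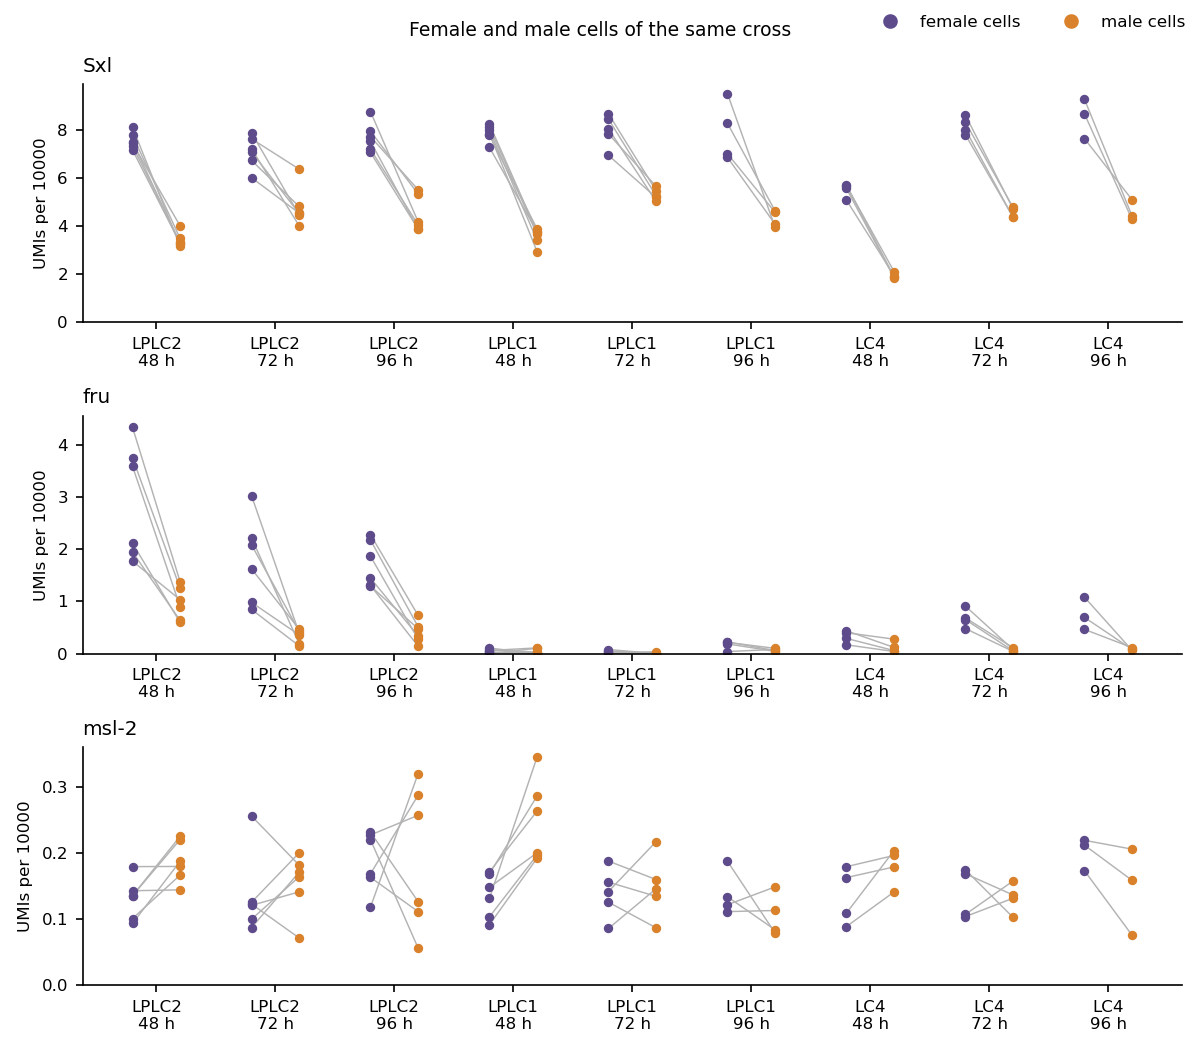
UMIs per 10000 (y axis) of Sxl, fru and msl-2 in the female and male cells of the same cross, joined by a line, for each cell type and stage. Sxl falls from female to male in 44 of 44 crosses and fru in 39 of 44, with fru near 0 in both sexes of LPLC1, while msl-2 is higher in male cells in all 16 crosses at 48 h.

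fru was also lower in male cells. The gene encodes BTB zinc finger transcription factors, whose distal promoter transcripts give a male-specific protein in neurons. In LPLC2 female cells the lowest, median and highest values were 1.77, 2.85 and 4.34 UMIs per 10000 at 48 h, 0.847, 1.86 and 3.03 at 72 h, and 1.29, 1.66 and 2.28 at 96 h. In male cells they were 0.596, 0.967 and 1.38, then 0.147, 0.376 and 0.469, then 0.140, 0.408 and 0.734. The male and female ranges did not overlap at any stage.

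In LC4 the 4 female values at 72 h were 0.910, 0.479, 0.683 and 0.650, and the male values 0.076, 0.041, 0.112 and 0.051. At 96 h the 3 pairs, female first, were 1.08 and 0.062, 0.694 and 0.079, and 0.463 and 0.114. At 48 h the female values were 0.399, 0.437, 0.167 and 0.290 and the male values 0.275, 0.117, 0.040 and 0.057, so the ranges overlapped although male was lower in each cross. In LPLC1 fru was low in both sexes: no cross exceeded 0.223 in female or 0.108 in male cells, and male was lower in 3 of 6, 4 of 5 and 3 of 4 crosses at 48, 72 and 96 h.

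Over all 44 crosses fru was 0.270 ± 0.34 in male and 1.05 ± 1.13 in female cells, a log2 fold change of -2.03 (adjusted p = 1.65e-19, SE 0.13, edgeR), lower in 39 of 44 crosses. By type it was -1.93 (SE 0.14) in LPLC2, -2.68 (SE 0.27) in LC4 and -0.96 (adjusted p = 0.426, SE 0.51) in LPLC1. The difference between types did not pass (adjusted p = 0.534, unadjusted p = 0.0137), so LPLC1 is not shown to differ from the others. By stage it was -1.51 (SE 0.16), -2.69 (SE 0.19) and -2.07 (SE 0.22) at 48, 72 and 96 h, and the stage interaction passed (adjusted p = 0.00146). It passed in all 6 combinations of LPLC2 and LC4 with stage and in none of LPLC1.

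The share of cells with a fru UMI followed the levels. At 10000 UMIs per cell, 52.8%, 53.3% and 69.2% of female LPLC2 cells had one at 48, 72 and 96 h, against 32.4%, 16.0% and 24.2% of male LPLC2 cells. Without thinning the shares were 61.1%, 67.8% and 82.2% in female and 39.8%, 26.9% and 34.6% in male LPLC2 cells. In LC4 they were 26.97%, 44.2% and 44.7% of thinned female and 7.33%, 6.69% and 12.4% of thinned male cells. LPLC1, the type with the least fru, gave 3.51%, 4.81% and 12.1% in female and 2.01%, 1.16% and 5.43% in male cells. Free RNA was not measured, and its part in any of these shares was not tested. The cells kept had median depths before thinning of 17579 to 21425 UMIs in female LPLC2 and 19428 to 25713 in female LPLC1. Male LC4 shares lay above the male LPLC1 shares at each stage. These shares pool the cells of all crosses, and the difference between the types was not tested on them.

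dsx, the other terminal switch gene, was barely detected. It gave 26 UMIs in 23 of 5674 cells, with 5, 7 and 3 cells in LPLC2 at 48, 72 and 96 h. The mean was highest in LPLC2 at 96 h, at 0.0052 ± 0.0058 UMIs per 10000, and no UMI was found at 96 h in LPLC1 (0 of 218 cells, exact 95% interval up to 1.68%) or LC4 (0 of 221 cells, up to 1.66%), limits on cells with a UMI and not on cells that express dsx. Male and female LPLC2 cells gave 3 UMIs each at 48 h, 4 each at 72 h and 2 each at 96 h, and dsx did not pass the filter on low counts, so no difference was detectable at this depth.

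msl-2, the subunit whose translation SXL represses in females, was higher in male cells at 48 h. In LPLC1 at 48 h the female values were 0.092 to 0.172 UMIs per 10000 and the male values 0.193 to 0.346, which did not overlap (n = 6). In LPLC2 at 48 h they were 0.094 to 0.180 in female and 0.144 to 0.226 in male cells, and in LC4 at 48 h 0.180, 0.109, 0.089 and 0.163 in female and 0.197, 0.204, 0.141 and 0.179 in male cells. Male was higher in all 16 crosses at 48 h, although in LPLC2 with strain 399 (0.143 and 0.144) and strain 799 (0.180 in both) the values were nearly equal. By group, msl-2 passed in 1 of 9, LPLC1 at 48 h (adjusted p = 0.0186, edgeR), where 2.88% of all genes passed. It did not pass at 48 h in LPLC2 (adjusted p = 0.0849) or LC4 (adjusted p = 0.711). The LPLC1 call was lost without strain 535, 555, 730 or 805.

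At 72 and 96 h the male and female ranges of msl-2 overlapped in each cell type. The log2 fold change was 0.63 (adjusted p = 0.000221, SE 0.12) at 48 h, 0.15 (adjusted p = 0.637, SE 0.14) at 72 h and -0.13 (adjusted p = 0.706, SE 0.19) at 96 h, and the stage interaction passed (adjusted p = 0.0169). Pooled over stages it was 0.31 (adjusted p = 0.0145, SE 0.09, edgeR), higher in 29 of 44 crosses, with means of 0.172 ± 0.066 in male and 0.148 ± 0.044 in female cells. The pooled value was 0.30 without strain 535 (adjusted p = 0.0624) and 0.37 with thinned cells (adjusted p = 0.0765), and the stage interaction had an adjusted p of 0.15 without strain 730 and 0.338 with thinned cells. These counts are small, 1779 UMIs in all cells.

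The other MSL genes did not separate the sexes. mle, the helicase, was 0.615 ± 0.083 in male and 0.632 ± 0.121 in female cells, a log2 fold change of -0.03 (adjusted p = 0.742, SE 0.04). msl-1, the scaffold, was 0.127 ± 0.066 and 0.129 ± 0.049, a log2 fold change of 0.03 (adjusted p = 0.926, SE 0.09). msl-3, the chromodomain subunit, was 0.052 ± 0.029 and 0.057 ± 0.040, a log2 fold change of 0.01 (adjusted p = 0.986, SE 0.14). For msl-3 the standard error was larger than for msl-2 (0.09), and it leaves room for differences somewhat smaller than the pooled msl-2 difference. mof, the X-linked acetyltransferase, was 0.103 ± 0.043 in male and 0.127 ± 0.053 in female cells, a log2 fold change of -0.14 (adjusted p = 0.454, SE 0.10).

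mof was lower in male cells at 96 h taken alone. In LPLC2 at 96 h the female values were 0.256, 0.169, 0.161, 0.286, 0.187 and 0.225 and the male values of the same crosses 0.182, 0.069, 0.127, 0.122, 0.056 and 0.136, lower in each cross. The log2 fold change there was -0.80 (adjusted p = 0.0475, SE 0.29), against 16.4% of all genes that passed in that group. Over the 3 types at 96 h it was -0.55 (adjusted p = 0.0442, SE 0.21), and the stage interaction did not pass (adjusted p = 0.214), so 96 h is not shown to differ from the other stages.

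**Figure D3:**
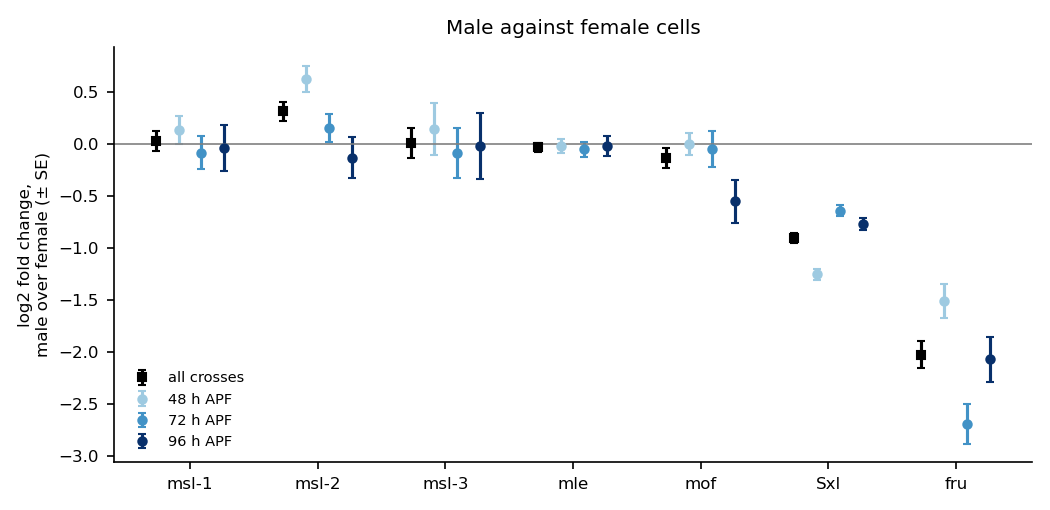
Log2 fold change of male over female cells (y axis, points with bars of ± 1 SE) for the 7 tested members over all crosses (black) and at each stage (blue). Each SE was derived from the edgeR fold change and F statistic. Sxl (-0.90) and fru (-2.03) lie below 0 at each stage, msl-2 lies above 0 at 48 h (0.63), and msl-1, msl-3 and mle lie within about 1 SE of 0.

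Levels of the MSL genes over stages were set beside the stage changes of all genes, which were many. Fold changes here are after TMM scaling and levels are per 10000 UMIs without it, so they need not match. Of the 7011 genes tested over all cells, 72% passed from 48 to 72 h in LPLC2, 63.5% in LPLC1 and 61.9% in LC4, and 54.5%, 48.7% and 45.9% from 72 to 96 h, so a call here is common. In LPLC2 from 48 to 72 h, 3 of 9 tested members fell and 0 rose, against 35.8% lower and 36.2% higher of all genes. These were msl-1 (0.189 ± 0.032 to 0.115 ± 0.033 UMIs per 10000, log2 fold change -0.73, adjusted p = 0.000196), mof (0.121 ± 0.013 to 0.082 ± 0.023, -0.46, adjusted p = 0.00456) and fru (2.19 ± 0.79 to 1.19 ± 0.69, -0.82, adjusted p = 0.00317). From 72 to 96 h mof rose to 0.169 ± 0.033 (0.87, adjusted p = 1.69e-05), as 28.8% of all genes did while 25.7% fell.

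mof took the same course in the other types, with values of 0.110 ± 0.030, 0.069 ± 0.018 and 0.102 ± 0.034 in LPLC1 and 0.143 ± 0.032, 0.1001 ± 0.0055 and 0.159 ± 0.026 in LC4. The fall in LPLC1 (-0.53, adjusted p = 0.00767) and the rise in LC4 (0.57, adjusted p = 0.0173) passed, and the rise in LPLC1 (0.47, adjusted p = 0.121) and the fall in LC4 (-0.33, adjusted p = 0.114) did not. The background was 32.9% higher and 30.7% lower for the first step in LPLC1, and 20.4% higher and 25.6% lower for the second in LC4. The LPLC1 fall had an adjusted p of 0.118 without strain 730, and the LC4 rise 0.198 without strain 535 and 0.0585 without strain 799. The LPLC2 fall was -0.28 in female cells alone (adjusted p = 0.226), -0.77 in male cells alone (adjusted p = 0.0101) and -0.29 with thinned cells (adjusted p = 0.258). The mean of msl-3 rose from stage to stage in each type, from 0.042 to 0.075 in LPLC2, 0.044 to 0.093 in LPLC1 and 0.027 to 0.073 in LC4, but no step passed.

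mle was the most even member. Its group means lay between 0.550 and 0.724 UMIs per 10000. In LPLC1 the means were 0.591, 0.612 and 0.578 at 48, 72 and 96 h, and after TMM scaling it passed narrowly in both steps, 0.20 from 48 to 72 h (adjusted p = 0.0485) and -0.27 from 72 to 96 h (adjusted p = 0.043), and the second had an adjusted p of 0.051 with the strain as a block. With DESeq2 size factors the log2 fold changes of mle were 0.15 (adjusted p = 0.161) and -0.23 (adjusted p = 0.081). The mle call for the first step was lost without strain 320, 535, 555, 730, 799 or 805 (adjusted p of 0.0644 without strain 555 to 0.273 without strain 799), and that for the second without strain 320, 730, 799 or 805 (0.0528 without strain 799 to 0.231 without strain 805). Neither passed within 1 sex, where the adjusted p of mle was 0.292 to 0.563.

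**Figure D4:**
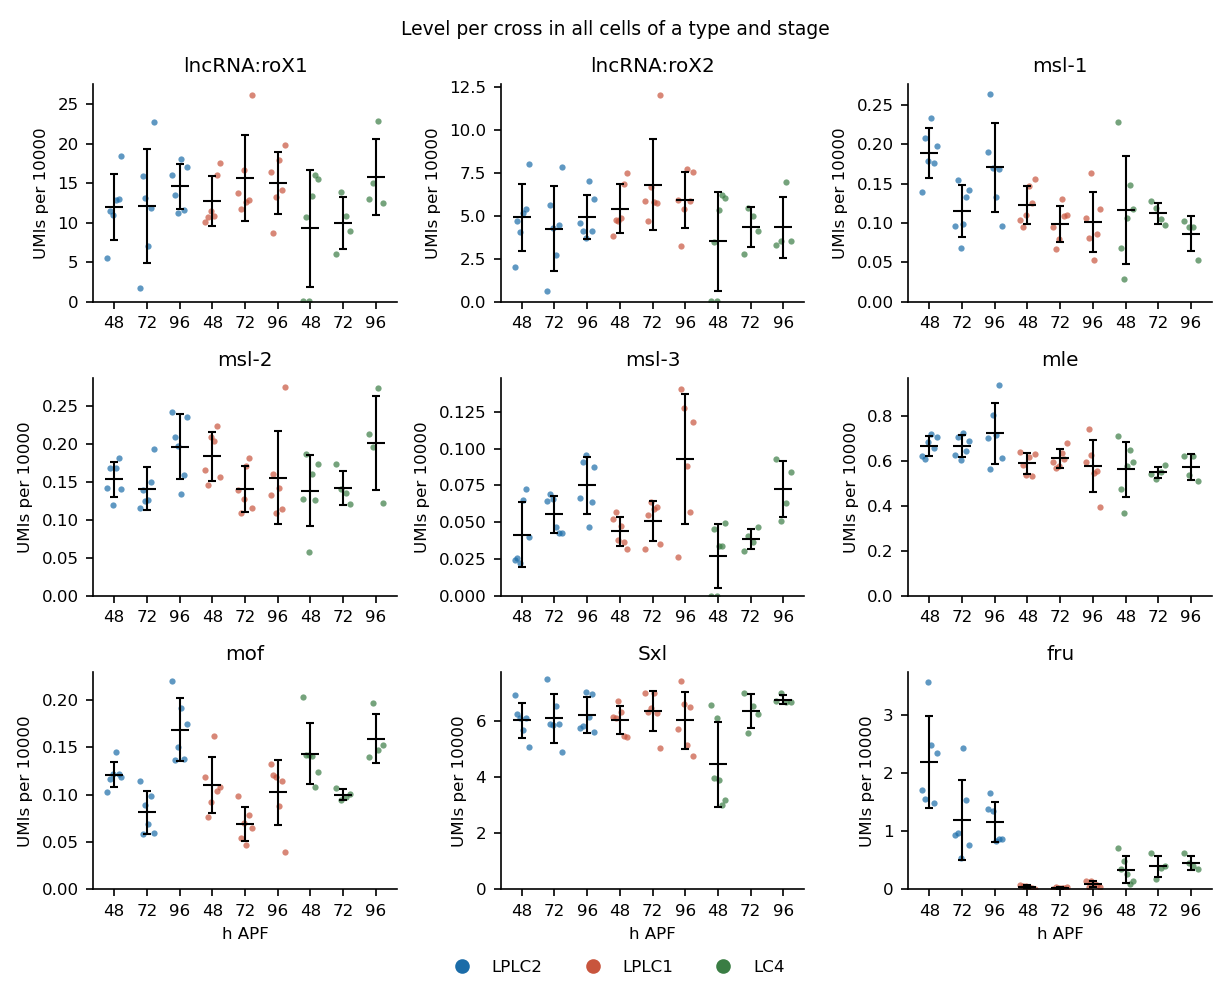
UMIs per 10000 (y axis) of 9 members in all cells of a cross, 1 point per cross, with mean and SD bars, by cell type (colour) and h APF. fru is high in LPLC2 (mean 2.19 at 48 h) and near 0 in LPLC1, Sxl is lower in LC4 at 48 h (mean 4.45) than in other groups, and roX1 and roX2 spread widely between crosses.

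Over all cells, Sxl rose in LC4 from 4.45 ± 1.504 at 48 h to 6.33 ± 0.60 at 72 h, a log2 fold change of 0.65 (adjusted p = 5.24e-05), where 31.2% of all genes rose and 30.8% fell. It rose in both sexes, by 0.55 in female cells alone (adjusted p = 3.77e-07) and 1.30 in male cells alone (adjusted p = 7.26e-13). In LPLC1 it fell from 72 to 96 h (-0.29, adjusted p = 0.0492), where 22.1% of all genes rose and 26.7% fell. After TMM scaling the fall was by 0.27 in female (adjusted p = 0.0137) and 0.45 in male cells alone (adjusted p = 0.00069). Per 10000 UMIs the female means were 7.99 ± 0.67 and 7.97 ± 1.08, so the female fall rests on the scaling, and the male means were 5.27 ± 0.25 and 4.15 ± 0.46. Over all cells the fall had an adjusted p of 0.236, 0.0819, 0.25 and 0.0539 without strains 320, 535, 730 and 805. With the strain as a block, the rise from 48 to 72 h in LPLC1 also passed (0.26, adjusted p = 0.0254), where it had missed without the block (0.22, adjusted p = 0.115).

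The cell types differed most in fru. Averaged over stages, fru was lower in LPLC1 than in LPLC2, with a log2 fold change of -4.93 (adjusted p = 4.12e-23, SE 0.26), lower in LC4 than in LPLC2 (-1.97, adjusted p = 1.53e-12, SE 0.20) and higher in LC4 than in LPLC1 (2.96, adjusted p = 2.72e-11, SE 0.32). Each held within female and within male cells alone. LPLC2 therefore came first, LC4 next and LPLC1 last at each stage, with 2.19, 0.339 and 0.043 UMIs per 10000 at 48 h, 1.19, 0.395 and 0.025 at 72 h, and 1.16, 0.454 and 0.090 at 96 h. With the strain as a block, the rise of fru in LC4 from 48 to 72 h passed (0.87, adjusted p = 0.0277), and without it did not (0.67, adjusted p = 0.135).

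msl-1 and mle were also higher in LPLC2 than in either other type. For msl-1 the log2 differences were -0.46 in LPLC1 (adjusted p = 0.00346) and -0.49 in LC4 (adjusted p = 0.00185). For mle they were -0.19 (adjusted p = 0.00631) and -0.20 (adjusted p = 0.00321). mof was lower in LPLC1 than in LPLC2 (-0.35, adjusted p = 0.00617) and than in LC4, which was higher by 0.52 (adjusted p = 0.000151). Of 9 tested members, 0 were higher and 4 lower in LPLC1 than in LPLC2 (background 20.3% and 22.3%), 0 and 3 in LC4 than in LPLC2 (31.9% and 33.8%), and 2 and 0 in LC4 than in LPLC1 (27.9% and 27.4%). In either direction 42.6%, 65.7% and 55.3% of all genes passed in these 3 contrasts. In male cells alone, mof (adjusted p = 0.347) and mle (adjusted p = 0.397) no longer passed between LPLC1 and LPLC2, and in female cells alone msl-1 did not (adjusted p = 0.312). With thinned cells none of these 3 passed between LPLC1 and LPLC2 (adjusted p = 0.12 for mof, 0.341 for mle and 0.0892 for msl-1), and without strain 799 the adjusted p of mle was 0.0586. In LC4 against LPLC2, mle had an adjusted p of 0.3 in male cells alone and 0.0733 with thinned cells, and msl-1 of 0.0509 in female cells alone. The roX RNAs did not pass between any types or stages over all cells. roX2 in LC4 against LPLC1 passed only with the strain as a block (-0.55, adjusted p = 0.0309), and mof in LC4 against LPLC2 likewise (0.27, adjusted p = 0.022).

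The upstream and cofactor genes of sex determination differed little between male and female cells. The list held 24 genes, and 17 passed the filter on low counts. 0 of 17 passed with edgeR, beside 11.5% of all genes, and 3 had an unadjusted p under 0.05 (Ythdc1, fl(2)d and emc, with log2 fold changes of 0.11, 0.10 and 0.07). With the DESeq2 Wald test the same 3 genes of the 17 passed, so their calls depend on the tool. The list median was 0.066 on the log2 scale, beside -0.0072 over all 6807 genes. tra, the splicing regulator below Sxl, was 0.282 ± 0.086 in male and 0.284 ± 0.079 in female cells (0.02, SE 0.06, adjusted p = 0.933). Unr, the translational repressor that acts with SXL on msl-2, had a log2 fold change of 0.0004 (SE 0.02) with an adjusted p of 0.996. The early X-counting genes sisA, sc, run and upd1 gave 14, 1, 2 and 0 UMIs in all cells.

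Among 12 partners of the MSL complex or of MOF, all tested, 1 passed, beside 11.5% of all genes, so the count is near the background. This was wds, an X-linked WD repeat subunit of the MOF-containing NSL complex, at 0.286 ± 0.098 in male and 0.358 ± 0.108 in female cells (-0.26, SE 0.07, adjusted p = 0.0081, edgeR), lower in 32 of 44 crosses. Its adjusted p was 0.0785 without strain 535, 0.0638 without strain 730 and 0.304 with thinned cells. By stage the log2 fold change was -0.21, -0.08 and -0.68, and the interaction passed (adjusted p = 0.0296). The list median was 0.0003. Clamp, the zinc finger protein that guides the complex to the X, differed by 0.04 (SE 0.05) and JIL-1, an X-enriched histone kinase, by 0.02 (SE 0.04), and neither passed.

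Over stages more of these genes passed than between the sexes, as for all genes. From 48 to 72 h, 10 of 17 genes of the sex determination list fell in LPLC2 and 0 rose, 9 fell and 0 rose in LPLC1, and 6 fell and 2 rose in LC4. Of all genes, 35.8%, 30.7% and 30.8% fell and 36.2%, 32.9% and 31.2% rose in these steps. The list medians were -0.34, -0.28 and -0.05, beside 0.004, 0.04 and 0.01 over all genes. From 72 to 96 h, 9, 6 and 3 rose and 1, 2 and 2 fell, beside 28.8%, 22.1% and 20.4% of all genes higher and 25.7%, 26.7% and 25.6% lower. The partners took a like course, with 6, 5 and 4 of 12 falling and 0 rising from 48 to 72 h and 5, 3 and 4 rising and 0, 2 and 1 falling from 72 to 96 h.

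The m6A methyltransferase genes, whose product marks Sxl and other transcripts, were among those that fell. Mettl3 gave 184 UMIs in LPLC2 at 48 h, 1 at 72 h and 9 at 96 h, with 25621637, 19531768 and 7732237 UMIs in all. It gave 87, 4 and 6 UMIs in LPLC1 and 34, 6 and 3 in LC4. Its partner Mettl14 fell from 0.299 ± 0.031 to 0.070 ± 0.017 UMIs per 10000 in LPLC2 from 48 to 72 h and from 0.241 ± 0.033 to 0.095 ± 0.033 in LPLC1, and from 0.167 ± 0.058 to 0.105 ± 0.025 in LC4. Unr fell from 13.9 ± 0.58 to 9.65 ± 0.38 in LPLC2, from 16.3 ± 1.53 to 10.4 ± 0.44 in LPLC1 and from 18.1 ± 1.54 to 11.3 ± 0.33 in LC4. Among the partners, Top2, a topoisomerase, fell in each type from 48 to 72 h (log2 fold changes of -1.32, -1.02 and -1.42 in LPLC2, LPLC1 and LC4), as did the nuclear pore protein gene Mtor (-1.26, -1.11 and -1.01). Trl, which encodes GAGA factor, rose in each type from 72 to 96 h (1.48, 1.45 and 1.01). These steps cross from one library to the next.

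Chromosomes were compared because the MSL complex acts on the X. Without the roX RNAs, X-linked genes held 17.5 ± 1.04% of UMIs in male and 18.3 ± 0.89% in female cells (n = 44), a difference of -0.861 ± 0.432 percentage points, lower in male cells in 43 of 44 crosses (sign-flip permutation test, two-sided p = 1e-05, the smallest that 100000 resamples can give). The mean difference by group lay between -0.207 (LC4, 96 h, 3 crosses) and -1.37 (LPLC2, 96 h, 6 crosses). Within groups the exact test could not go below 0.0312 with 6 crosses, and the adjusted p was 0.0703 or higher in each. The ratio of the male to the female share was 0.953 over all crosses.

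**Figure D5:**
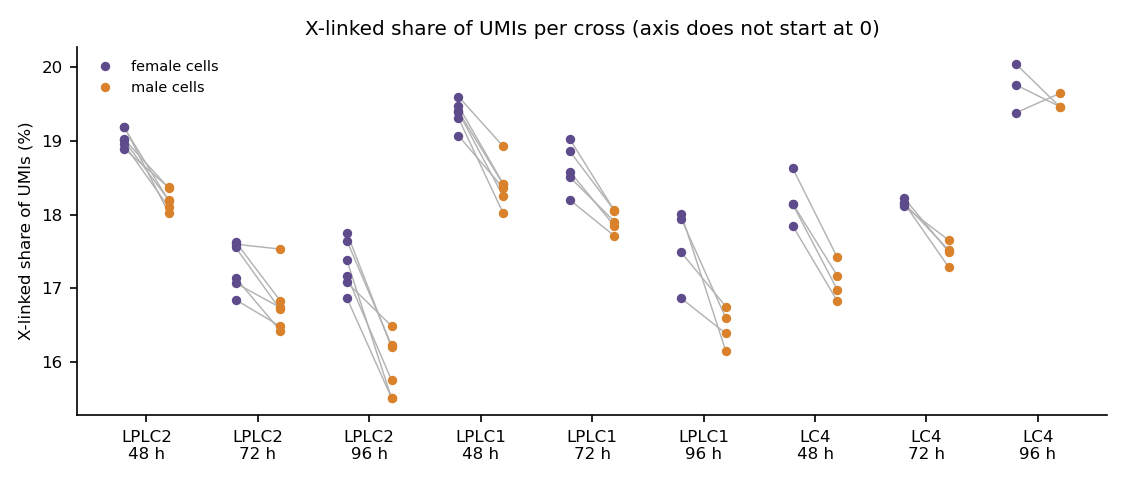
X-linked share of UMIs (y axis, %, not starting at 0, roX1 and roX2 left out) in female and male cells of the same cross, joined by a line, by cell type and stage. The male value is lower in 43 of 44 crosses, with means of 17.5% and 18.3%.

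Gene by gene, 185 of 1219 tested X-linked genes were higher in male and 253 higher in female cells, with a median log2 fold change of -0.025 (quartiles -0.165 and 0.117). On chromosomes 2 and 3, 189 and 142 of 5479 genes were, with a median of -0.0055 (quartiles -0.071 and 0.065). The 5 genes named by rule in each direction were placed on the X but for 1, which was placed on a separate rDNA sequence. The positions used do not say on which chromosome that gene lies, so it is not shown to be free of the X. Higher in male cells were mew (2.89, an integrin alpha subunit), CG3706 (2.74), CG6891 (2.52), yin (2.37, a peptide transporter) and CG3527 (1.98), and higher in female cells Kmn1 (-3.82, a kinetochore protein), CG17167 (-2.81), Karl (-2.32) and lncRNA:CR45668 (-2.04), beside pre-rRNA:CR45845 of the rDNA (-2.20). Sons and daughters differ in the paternal X, and its part in these differences cannot be told apart from sex.

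Y-linked fertility genes gave no clean check of the classes. kl-2 gave 28 UMIs in male and 9 in female cells, kl-5 94 and 66, and ORY 1692 and 1397. More UMIs were in female cells for kl-3 (36 and 49), WDY (36 and 44) and Ppr-Y (83 and 86), CCY gave 25 and 24, and Pp1-Y1, Pp1-Y2, ARY and FDY gave 0 in both. ORY was the one gene of the list that passed the filter on low counts, at 0.316 ± 0.160 in male and 0.226 ± 0.136 UMIs per 10000 in female cells (0.48, SE 0.09, adjusted p = 8.22e-05, edgeR), higher in 34 of 44 crosses. Females carry no Y, and the origin of the Y-assigned UMIs in female cells was not tested.

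The genes most like each member over the 50 sums of all cells were named by Spearman correlation, as a description with no test. fru followed drl (0.93), MESR3 (0.89) and beat-IIIc (0.89), and mof followed e(r) (0.82), CG7971 (0.80) and CG3520 (0.77). For msl-1 the nearest was MTA1-like (0.66), for mle alpha-Cat (0.64), for Sxl mei-P26 (0.60) and for msl-2 hpRNA:CR46342 (0.55). For roX1 and roX2 the same gene, a lethal locus on the third chromosome, ranked first (0.57 and 0.56), followed by bys (0.56) for roX1 and gol (0.54) for roX2. The sums share libraries, drivers and strains, and the values order the genes within these 50 sums only. They also differ in their share of male cells. For members that differ by sex, that share and the level per cell cannot be told apart here.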

How the data were processed

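Single-cell 3′ RNA libraries of sorted LPLC2, LPLC1 and LC4 neurons were made by the authors with 1 library per stage, aligned and counted with Cell Ranger against the FlyBase annotation of dm6, assigned to DGRP strains with demuxlet and annotated in Seurat 5.0.1. The deposited matrices hold raw UMI counts per gene and cell, not normalized. The deposited cell tables give mitochondrial UMIs as a percent of each cell's UMIs, computed by the authors, which were used for the stated filter alone. Whether intronic reads were counted is not given in the sources used here. The authors' cell types and strain calls were used. All kept cells were called as single by genotype, and no doublet caller was run here. The stated filter was 10000 to 50000 UMIs, but the kept cells reach down to 5003 UMIs (307, 322 and 175 cells below 10000 at 48, 72 and 96 h). A further 78, 125 and 126 kept cells with another label were left out.

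UMIs were summed per cross and class, over crosses with at least 10 cells of each class, and given as UMIs per 10000. Genes were filtered with filterByExpr, scaled with TMM and tested with the edgeR 4.0.16 quasi-likelihood test (R 4.3.3) at a Benjamini-Hochberg adjusted p of 0.05 over all genes tested. Male and female sums were paired by cross. Stage and type contrasts used sums of all cells, without the strain as a block. Sums of 1 strain deviated together weakly (median correlation 0.082 over 174 pairs, 40.2% above 0.1, against -0.014 for different strains), so the block is an alternative. The male and female classes of a cross share animals of 1 pool, and p-values cover the spread between crosses. On simulated counts, 99% of genes changed 1.25-fold were recovered in the pooled male and female comparison (4192 genes), and 30% in LPLC2 at 72 against 48 h (5138 genes). For the stage interaction of the male and female difference, 22% were recovered at 1.25-fold and 99% at 2-fold (4192 genes). Recovery at the counts and spread of single members was not tested. Intervals cover counting error only.

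Members and lists were chosen with earlier results of these data known. Genes beyond the lists were named by rule: the 5 largest changes in each direction among called genes that changed the same way in at least 80% of crosses. Positions and overlaps come from the reference gene table. Alternatives were DESeq2 (1.42.0) size factors and Wald test, no filter on low counts, thinning to 10000 UMIs, the stated cell filter, other roX limits, cells of 1 sex, the strain block and leaving out each strain. Male and female differences for each of the 9 groups of type and stage were chosen after seeing the data. They come from 1 fit to all crosses, so groups with few crosses share the spread of the others.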

Additional observations from a re-analysis of the deposited data

Results flagged for a closer look

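Some crosses stood apart from the others of their group by Dixon's criterion, which chance meets in about 1 in 20 groups. It was met in 8 of 81 groups of member levels over all cells, 4 of 85 within male or female cells, and 1 of 9 for the male share. In LPLC1 at 72 h, strain 805 had 99.0% male cells (next 65.5%), 26.2 roX1 UMIs per 10000 (next 16.6), 12.1 roX2 (next 6.70) and 5.03 Sxl (next 6.291). In LC4 at 96 h, strain 799 had 6.98 roX2 (next 3.52), strain 805 had 0.0534 msl-1 (next 0.0947) and strain 535 had 6.98 Sxl (next 6.69). In LPLC1 at 96 h, strain 805 had 0.276 msl-2 over all cells (next 0.161) and 0.346 in male cells (next 0.149). In LC4 at 48 h, strain 399 had 0.203 mof (next 0.142). In male LPLC2 cells, strain 555 had 34.1 roX1 at 48 h (next 32.7) and strain 320 had 6.37 Sxl at 72 h (next 4.81), and in female LPLC2 cells strain 805 had 0.257 msl-2 at 72 h (next 0.126).

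The male and female difference varied with stage, by a test of the interaction in edgeR, for Sxl (adjusted p = 8.8e-09), fru (adjusted p = 0.00146), msl-2 (adjusted p = 0.0169), wds (adjusted p = 0.0296), da (adjusted p = 0.044) and CG6891 (adjusted p = 0.000106). As 22.9% of all genes did so, and as each stage was 1 library, stage and library cannot be told apart.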

How the results depend on the processing

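No called result changed direction under the alternatives run. The pooled value of msl-3, which was not called (0.01), was negative without strain 399 (-0.05) or 555 (-0.03) and without the block (-0.0041). With cells thinned to 10000 UMIs, 471 genes in place of 781 differed between male and female cells, and 865 in place of 1556 varied with stage. Without a filter on low counts 125 genes in place of 26 varied with cell type. In female cells alone 2147 genes in place of 3221 changed from 72 to 96 h in LC4. Leaving out each strain in turn gave 546 to 744 genes for male against female, 1052 to 1627 for the stage and 11 to 25 for the cell type interaction, the lowest of these without strain 535. The pooled log2 fold change ranged from -0.93 to -0.88 for Sxl and from -2.05 to -1.97 for fru. Without the replicate block by cross, the pooled male and female values were -0.90 for Sxl, -2.03 for fru and 0.32 for msl-2, with no change of call among these. With strains as a replicate block in the stage and type contrasts, mle in LPLC1 at 96 against 72 h was lost (-0.26, adjusted p = 0.051). Beside the main comparisons stood results for single genes, shares of cells per group and counts. Under alternatives other than leaving out strains, 439 of their values kept their call or stayed within their spread. A further 40 were weaker, chiefly for mle, mof, msl-1, msl-2 and wds, and 3 shares of cells moved by more than the spread between crosses. Their causes were not tested. Members under 0.2 UMIs per 10000 are limited by counts, msl-3 and dsx most.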
